A study of Mus musculus with 14 samples.

Results

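The genes described here encode 10 lectin-like receptors first known from natural killer (NK) cells: the NKR-P1 receptors Klrb1a, Klrb1b, Klrb1c and Klrb1f, the CD94 chain Klrd1 with its NKG2 partners Klrc1 and Klrc2, and Klre1, Klrk1 and Klrg1. They were chosen by symbol, as members of these receptor families. All 10 were found among the 50508 gene symbols of each of 2 deposited count tables. Each table came from bulk RNA sequencing of sorted mouse T cells, in a study of αβ T cells termed ILTCk, for innate-like cells with killer function, that also sorted their progenitors from the thymus (ILTCkP). The libraries formed 5 groups of 2. The thymic groups, ILTCkP and the CD8 single-positive thymocytes called CD8SP, were taken from C57BL/6 mice, and the sources used here give no age for any animal. Per the labels' protocols the thymic cells were negative for the CD1d/PBS-57 tetramer, a reagent that marks natural killer T cells, but the gate text used here breaks off after CD25. The other table held NK1.1+ ILTCk, NK1.1- ILTCk and PD-1-bearing conventional T cells, called PD1+ Tconv, all from retrogenic mice, whose blood system is rebuilt from marrow cells carrying a transferred T cell receptor gene, so each group may hold few receptor specificities. NK1.1+ ILTCk and PD1+ Tconv were sorted from tumours as CD45+ TCRγδ- TCRβ+ CD4- CD8α+ cells, the former PD-1- NK1.1+ and the latter PD-1+ NK1.1-. The gate, tissue and tumour model of NK1.1- ILTCk are not stated in the sources used here, and nor is the T cell receptor that each group carried. One label field calls both ILTCk groups ILTCkP, and the names in the titles are used here. Whether the libraries of a group came from separate animals is not in the labels, and p-values therefore reflect only the spread between these libraries, which may be technical.

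NKR-P1 receptors are encoded beside the genes of many of their own ligands, the Clec2 (Clr) lectins. Klrb1c encodes NKR-P1C, the activating receptor detected as NK1.1 in C57BL/6 mice, so it was a sort marker in the tumour groups and its level there is a check of the sort, not a finding. Klrb1b encodes an inhibitory receptor for the Clec2d product, and Klrb1f encodes a receptor for Clec2i. CD94 is a shared chain: with NKG2A (Klrc1) it forms an inhibitory receptor, and with NKG2C (Klrc2) an activating one, both for the class Ib molecule Qa-1, encoded by H2-T23. NKG2D (Klrk1) is an activating receptor for the stress-induced Raet1, H60 and Ulbp1 proteins and signals through the adaptors Hcst (DAP10) and Tyrobp (DAP12). Klre1 encodes a chain that pairs with Klri1 or Klri2, and Klrg1 encodes an inhibitory receptor for cadherins that marks differentiated effector T cells. NK cells and subsets of activated CD8+ T cells express these genes, and the CD94 and NKG2A chains are also known on tumour-infiltrating CD8+ T cells.

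All 10 genes are protein-coding and lie on chromosome 6 (GRCm38, GENCODE M21). The NKR-P1 genes were Klrb1a at chr6:128609227-128623533, Klrb1c at chr6:128778485-128789215 and Klrb1b at chr6:128813706-128826331, all on the minus strand, and Klrb1f at chr6:129045901-129057464 on the plus strand. Farther along stood Klre1 (chr6:129577905-129585827, plus), Klrd1 (chr6:129591782-129598775, plus), Klrk1 (chr6:129610323-129623864, minus), Klrc2 (chr6:129647496-129660689, minus) and Klrc1 (chr6:129666015-129678973, minus). Klrg1 was the one gene apart from this stretch, at chr6:122270596-122282882 on the minus strand. Some of the genes are close copies, which bears on how short reads are assigned. Of the different 50-base windows of their annotated transcripts, 38.6% of those of Klrc1, 27.2% of Klrb1b, 17.0% of Klrb1c, 16.3% of Klrc2 and 9.92% of Klrb1a also occurred in a transcript of another gene. Klrc1 and Klrc2 shared windows with each other and with Klrc3, and Klrb1a, Klrb1b and Klrb1c shared them with one another and with Gm44511, an annotated readthrough gene with 0 counts in every library. How the authors counted such reads is not stated, and the levels of these 5 genes are uncertain to that extent. The strand setting of the counting is not given either.

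The promoters of the 4 NKR-P1 genes are shown because the thymic calls and most of the widest tumour-table differences were in these genes. Each sequence is taken from RefSeq (GRCm38.p6), runs from 250 bases before to 50 bases after an annotated start, and is written 5′ to 3′ on the gene's own strand. Capitals mark the core motifs TGTGGT (RUNX family) and AGGAAG (ETS family), searched on both strands together with GGTGTGA (T-box family). RUNX, ETS and T-box factors are known regulators of NK-cell and CD8+ T-cell genes.
Klrb1a (chr6:128622885-128623184, minus): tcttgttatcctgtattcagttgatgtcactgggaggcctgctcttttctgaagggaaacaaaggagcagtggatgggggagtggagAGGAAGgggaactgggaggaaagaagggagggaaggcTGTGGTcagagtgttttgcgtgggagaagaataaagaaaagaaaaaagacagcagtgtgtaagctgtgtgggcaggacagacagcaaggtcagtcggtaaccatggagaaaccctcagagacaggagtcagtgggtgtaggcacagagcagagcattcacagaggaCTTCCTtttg
Klrb1c (chr6:128788592-128788891, minus): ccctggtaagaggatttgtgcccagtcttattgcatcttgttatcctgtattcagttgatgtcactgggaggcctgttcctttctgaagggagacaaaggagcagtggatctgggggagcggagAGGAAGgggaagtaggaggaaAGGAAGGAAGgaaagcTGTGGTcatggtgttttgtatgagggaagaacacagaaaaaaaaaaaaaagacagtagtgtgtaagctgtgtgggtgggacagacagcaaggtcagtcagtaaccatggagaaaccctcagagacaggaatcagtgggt
Klrb1b (chr6:128826266-128826565, minus): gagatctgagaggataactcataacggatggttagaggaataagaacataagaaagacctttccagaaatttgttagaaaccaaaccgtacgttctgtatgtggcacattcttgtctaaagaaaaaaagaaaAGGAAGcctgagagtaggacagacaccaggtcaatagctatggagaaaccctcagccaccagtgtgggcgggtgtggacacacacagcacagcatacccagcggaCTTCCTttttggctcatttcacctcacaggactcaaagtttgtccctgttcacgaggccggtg
Klrb1f (chr6:129045651-129045950, plus): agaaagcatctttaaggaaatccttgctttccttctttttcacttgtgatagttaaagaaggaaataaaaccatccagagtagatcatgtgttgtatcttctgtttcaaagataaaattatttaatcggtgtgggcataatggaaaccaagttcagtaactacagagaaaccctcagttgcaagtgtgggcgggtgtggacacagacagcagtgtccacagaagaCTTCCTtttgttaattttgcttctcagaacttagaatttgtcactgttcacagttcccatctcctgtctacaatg
The Klrb1a and Klrb1c promoters shared 69.4% of aligned bases, and each held the RUNX letters on the forward strand, at position -126 of Klrb1a and -89 of Klrb1c from the start. The Klrb1b and Klrb1f promoters shared 58.3% of aligned bases and held no RUNX letters in this window, and every other pair of the 8 receptor promoters found in RefSeq lay between 41.5 and 49.1%. RUNX letters were present in 6 of these 8 promoters, namely those of Klrb1a, Klrb1c, Klrc1, Klrc2, Klre1 and Klrk1, against 16.9% of 27025 mouse promoters of the same length. ETS letters were present in the 4 NKR-P1 promoters and in none of the other 4, against 35.1% of all promoters, and 2 of the 3 matches in Klrb1c overlap each other. The T-box letters were in 0 of the 8 promoters and in 3.96% of all. Promoters of paralogues share ancestry, so these matches are not separate observations, and a match describes letters only. The promoters of Klrd1 and Klrg1 were not used here.

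Counts per library ranged from 27826979 to 32097301 in the thymic table and from 16530085 to 28097845 in the tumour table. The 4 CD3 chain genes (Cd3d, Cd3e, Cd3g and Cd247), part of the T cell receptor complex, summed to between 77897 and 127388 counts in the thymic libraries but between 8173 and 84717 in the tumour table. In that table the myeloid markers, all 13 detected in every library, summed to 3978 and 3735 CPM (counts scaled to library size) in NK1.1- ILTCk, 9268 and 25036 for NK1.1+ ILTCk, and 248 and 1520 for PD1+ Tconv. The dendritic cell list, with 9 or all 10 genes detected in each library, summed to 4796 and 1855, 12390 and 7587, and 388 and 839 CPM in the same order. The 10 T cell markers summed to 1746 and 1264, 3090 and 635, and 5463 and 3691 CPM, so that both ILTCk groups lay below PD1+ Tconv, and the second NK1.1+ ILTCk library was the lowest. The 8 epithelial markers, all detected in every library of that table, summed to 2579 and 3977, 1824 and 2522, and 550 and 1875 CPM. All 10 T cell markers were detected in each library, but in all 4 ILTCk libraries the myeloid markers summed to more than the T cell markers, and in 3 of the 4, all but the first NK1.1+ ILTCk library, the epithelial markers did so too. The part of those cells in the receptor levels was not tested. In bulk libraries, fewer cells of a type and less RNA per cell cannot be told apart.

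The first comparison asks how the receptors of thymic ILTCk progenitors differ from those of CD8SP thymocytes. Of the 10 receptor genes, 6 passed the filter on low counts and were tested. By edgeR's quasi-likelihood test at an adjusted p under 0.05, 3 of these 6 were higher in ILTCkP and 0 were lower. All 3 were NKR-P1 genes (Klrb1a, Klrb1c and Klrb1f). Among all 14634 genes tested, 3.38% were higher and 1.33% lower by the same test. Klrb1a, Klrb1c and Klrc2 passed the filter only through their ILTCkP libraries. The filter thus partly set the counts of 3 and 6, and no conclusion about the receptors as a set is drawn from them. CD94, the receptor chain that made up nearly all receptor transcript in CD8SP, did not pass the test, and transcripts of NKG2A and KLRG1 were close to absent in both groups.

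Klrb1a had 0 counts in both CD8SP libraries and 39.8 and 105 CPM in the ILTCkP libraries. With 3 counts set over the CD8SP group, its mean of 72.3 CPM was at least 1460-fold higher in ILTCkP (edgeR adjusted p = 0.0102). Its neighbour Klrb1, a paralogue of the same subfamily listed among the other lectin-like genes, followed the same pattern, with 0 counts in CD8SP and 10.0 and 21.8 CPM in ILTCkP (at least 321-fold, adjusted p = 0.0120). Both genes were thus detected in the progenitors and not detected, at this depth, in CD8SP.

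Klrb1c, the NK1.1 gene, stood at 0.827 and 0.221 CPM in CD8SP and at 9.22 and 15.0 CPM in ILTCkP. The groups did not overlap, and the log2 fold change was 4.53 ± 0.74 (SE; edgeR adjusted p = 0.0320). Whether NK1.1 was part of the thymic gate is not in the text used here. Klrb1f stood at 0.931 and 0.918 CPM in CD8SP and at 5.01 and 6.47 CPM in ILTCkP, a log2 fold change of 2.63 ± 0.51 (adjusted p = 0.0466). That call was lost when either CD8SP library was left out, with adjusted p = 0.224 without the first and 0.209 without the second. Klrb1b, which encodes an inhibitory receptor, had 0 counts in 3 of the 4 thymic libraries and 6 counts in the other, an ILTCkP library. It did not pass the filter on low counts. Per kilobase of exon, Klrb1a had the highest mean level of these 4 genes in ILTCkP, followed by Klrb1c and Klrb1f.

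Klrd1 (CD94) was the receptor gene shared by both thymic groups, at 29.7 and 25.8 CPM in CD8SP and 10.4 and 32.9 CPM in ILTCkP. The ILTCkP libraries lay on both sides of the CD8SP ones, and the log2 fold change was -0.36 ± 0.56 (edgeR adjusted p = 0.744). Its direction depended on the ILTCkP library: 0.25 without the first and -1.42 without the second. CD94 had almost no NKG2 partner transcript there. Klrc1 (NKG2A) had 3 and 23 counts in CD8SP and 2 in each ILTCkP library, and Klrc2 (NKG2C) had 1 in each CD8SP library and 10 and 32 in ILTCkP. The change of Klrc2 did not pass the test (4.22 ± 1.16, adjusted p = 0.107). Klre1 had 0 counts in CD8SP and 2 and 24 in ILTCkP, and Klrg1 had 1 and 13 against 2 and 6. Klrc1, Klre1 and Klrg1 did not pass the filter on low counts.

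Klrk1 (NKG2D) was low in both groups, at 0.862 and 0.981 CPM in CD8SP and 4.30 and 5.49 CPM in ILTCkP. Both ILTCkP libraries were above both CD8SP libraries. The log2 fold change of 2.40 ± 0.53 missed the threshold in edgeR (adjusted p = 0.0657) and passed it in DESeq2 (adjusted p = 0.00540). DESeq2 called 4 of the 6 tested receptor genes higher, against 8.82% of all genes tested. The filter on low counts partly set this count too, as it did the edgeR one. Counting libraries alone, 6 of the 10 genes had both ILTCkP libraries above both CD8SP libraries and 1, Klrc1, below. Klre1 and Klrc1 are among these but were not tested. Of the 6 tested genes 5 lay above and 0 below, beside 28.8% and 29.3% of all genes tested. Klrb1a, Klrb1c and Klrc2 passed the filter on low counts only through their ILTCkP libraries, and that filter dropped Klrc1. The filter thus partly set this count, and no conclusion is drawn from it. With 1 library left out, the log2 fold change of Klrb1c ran from 3.87 to 5.76 and that of Klrb1f from 2.43 to 2.81. That of Klrk1 ran from 2.21 to 2.58, and that of Klrd1 from -1.42 to 0.25. The 10 NK cell markers summed to 21.9 and 17.3 CPM in CD8SP and 38.7 and 40.0 CPM in ILTCkP, with 5 or 6 of 10 detected in each library. Of these, edgeR called Il12rb2 higher (log2 fold change 2.57 ± 0.40, adjusted p = 0.0268) and Eomes lower (-2.63 ± 0.48, adjusted p = 0.0401) in ILTCkP, and DESeq2 also called Klra7 (8.16 against 0.158 CPM) and Klra3 (2.29 against 0.0172 CPM) higher. Ncr1, Klra8 and Cma1 had 0 counts in all 4 thymic libraries. The gamma-delta T cell markers summed to 21.3 and 18.1 CPM in CD8SP and 284 and 413 CPM in ILTCkP. The part of cells carrying either set of markers in these results was not tested.

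**Figure D1:**
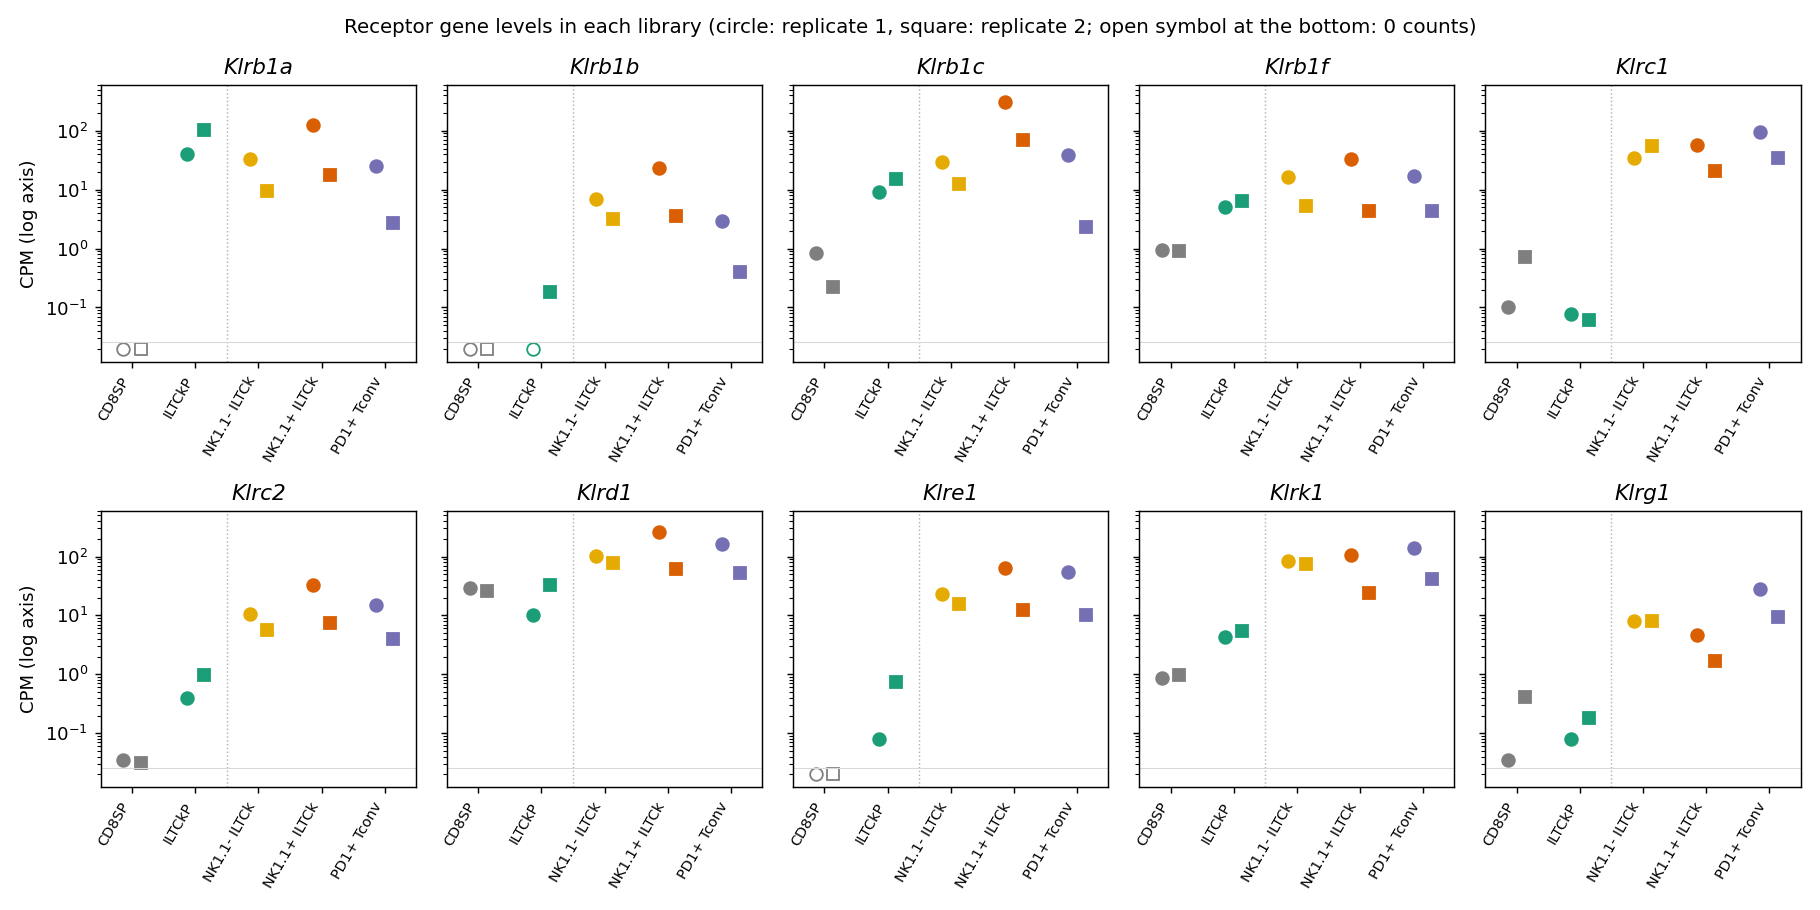
Level of each receptor gene in each of the 10 libraries, in CPM (counts scaled to library size) on a log axis; circles are the first and squares the second library of a group, and open symbols at the bottom mark 0 counts. Klrb1a goes from 0 counts in CD8SP to 39.8 and 105 CPM in ILTCkP, and the libraries of NK1.1+ ILTCk and of PD1+ Tconv lie far apart within their group.

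In the tumour table all 10 receptor genes were transcribed in all 3 groups, and none of the 10 was called between any pair of groups by edgeR fitted without a replicate block, nor was any of the 18091 genes tested. Between NK1.1+ ILTCk and PD1+ Tconv the receptor genes with the widest fitted differences were Klrb1c, Klrb1b and Klrb1a, with the higher mean in NK1.1+ ILTCk, and Klrg1, with the higher mean in PD1+ Tconv. The tables were scaled separately, so thymic and tumour levels are set side by side with no test: in CPM, Klrb1b, Klrd1, Klrk1, Klrc1, Klrc2, Klre1 and Klrg1 were higher in every tumour-table library than in any thymic library, whereas Klrb1a in ILTCkP lay within the range of NK1.1+ ILTCk.

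Among the NKR-P1 genes, Klrb1c stood at 29.9 and 12.4 CPM for NK1.1- ILTCk, 309 and 68.6 CPM for NK1.1+ ILTCk and 39.5 and 2.35 CPM for PD1+ Tconv. The NK1.1+ ILTCk libraries were the highest, as the sort would give, while the other groups overlapped. The first PD1+ Tconv library, from a gate without NK1.1, still had a level above both NK1.1- ILTCk libraries. Klrb1c in NK1.1+ ILTCk differed by a log2 fold change of 3.17 ± 1.28 from PD1+ Tconv (edgeR adjusted p = 0.334) and of 3.16 ± 1.28 from NK1.1- ILTCk (unadjusted p = 0.0426, lost on adjustment). These comparisons share libraries and are not independent.

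Klrb1b, which encodes an inhibitory receptor, stood at 6.91 and 3.19 CPM for NK1.1- ILTCk. It stood at 23.8 and 3.52 CPM for NK1.1+ ILTCk and at 2.93 and 0.405 CPM for PD1+ Tconv. Both ILTCk groups lay above PD1+ Tconv without overlap. Its log2 fold change against PD1+ Tconv was 2.99 ± 1.20 for NK1.1+ ILTCk (edgeR adjusted p = 0.329) and 1.56 ± 1.14 for NK1.1- ILTCk. Klrb1a stood at 32.7 and 9.49 CPM, 124 and 17.8 CPM, and 24.8 and 2.76 CPM in the same order of groups, overlapping throughout, with 2.35 ± 1.23 for NK1.1+ ILTCk against PD1+ Tconv (adjusted p = 0.443). That value was 0.35 without the first NK1.1+ ILTCk library and 4.70 without the first PD1+ Tconv library, and the same omissions gave 1.04 and 5.07 for Klrb1b and 1.70 and 6.34 for Klrb1c. Klrb1f stood at 16.3 and 5.29, 33.8 and 4.38, and 17.3 and 4.38 CPM. It was the NKR-P1 gene with the smallest difference between NK1.1+ ILTCk and PD1+ Tconv, 0.81 ± 1.07.

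Klrd1 (CD94) was the most abundant receptor transcript per kilobase of exon in all 6 tumour-table libraries. In CPM it stood at 102 and 76.3 for NK1.1- ILTCk, 263 and 60.6 for NK1.1+ ILTCk and 162 and 51.9 for PD1+ Tconv. Within each of the last pair of groups the first library exceeded the second several-fold, and no group stood apart. Its log2 fold changes were 0.60 ± 0.77 for NK1.1+ ILTCk and -0.26 ± 0.77 for NK1.1- ILTCk against PD1+ Tconv, the latter 1.40 with CD3 scaling. Klrc1 (NKG2A) stood at 34.0 and 55.4, 58.0 and 20.7, and 95.2 and 34.6 CPM, and Klrc2 (NKG2C) at 10.8 and 5.70, 33.3 and 7.40, and 15.1 and 3.97 CPM. Against PD1+ Tconv, NK1.1+ ILTCk had log2 fold changes of -0.73 ± 0.66 for Klrc1 and 1.09 ± 0.89 for Klrc2. Neither passed the test. With CD3 scaling both values were positive, at 0.63 for Klrc1 and 2.23 for Klrc2. Without the first NK1.1+ ILTCk library both were negative, at -1.65 and -0.37.

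The ratio of Klrc1 to Klrc2 counts does not depend on the library's scale. It was 1.74 and 2.79 for NK1.1+ ILTCk, 3.15 and 9.71 for NK1.1- ILTCk, and 6.31 and 8.71 for PD1+ Tconv. The NK1.1+ ILTCk ratios were the lowest, below both other groups without overlap, and those of NK1.1- ILTCk spanned the PD1+ Tconv ones. How often ratios of other genes separate in this way was not computed. These genes share windows of sequence, so the ratio depends on how the shared reads were counted. Klre1 stood at 23.1 and 15.6 CPM for NK1.1- ILTCk, 63.8 and 12.1 for NK1.1+ ILTCk and 54.4 and 10.3 for PD1+ Tconv, and no group stood apart.

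Klrk1 (NKG2D) stood at 82.5 and 74.3 CPM for NK1.1- ILTCk, 107 and 24.4 CPM for NK1.1+ ILTCk and 137 and 41.0 CPM for PD1+ Tconv. NK1.1- ILTCk lay inside the range of each other group, and the log2 fold changes were -0.44 ± 0.78 for NK1.1+ ILTCk and -0.18 ± 0.78 for NK1.1- ILTCk against PD1+ Tconv, and 0.70 and 1.51 with CD3 scaling. Its ratio to Klrd1 counts was 0.406 and 0.403 for NK1.1+ ILTCk, 0.808 and 0.974 for NK1.1- ILTCk, and 0.847 and 0.791 for PD1+ Tconv. The ratio was steadier than the level for NK1.1+ ILTCk and PD1+ Tconv, but not for NK1.1- ILTCk. Relative to CD94, NKG2D transcript was lower in NK1.1+ ILTCk than in both other groups without overlap. The share of all genes that separate on this scale was not computed, so this describes the libraries only.

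Klrg1 stood at 8.12 and 7.89 CPM for NK1.1- ILTCk, 4.60 and 1.71 CPM for NK1.1+ ILTCk and 28.1 and 9.24 CPM for PD1+ Tconv. The 3 groups did not overlap, with PD1+ Tconv highest and NK1.1+ ILTCk lowest. Klrg1 for NK1.1+ ILTCk differed from PD1+ Tconv by a log2 fold change of -2.56 ± 0.76 (edgeR adjusted p = 0.225; DESeq2 adjusted p = 0.0156), and by -3.44 without the first NK1.1+ ILTCk library and -1.53 without the first PD1+ Tconv library. It was the 1 receptor gene that DESeq2 called in any tumour comparison, where DESeq2 found 3.55% of genes lower. NK1.1- ILTCk lay between the other groups, at -1.22 ± 0.72 from PD1+ Tconv (0.47 with CD3 scaling, -0.19 without the first PD1+ Tconv library) and with NK1.1+ ILTCk at -1.34 ± 0.73 from it. The ratio of Klrg1 to Klrd1 counts kept this order, at 0.0175 and 0.0283 for NK1.1+ ILTCk, 0.0795 and 0.103 for NK1.1- ILTCk, and 0.174 and 0.178 for PD1+ Tconv. The share of all genes that separate relative to Klrd1 was not computed.

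**Figure D2:**
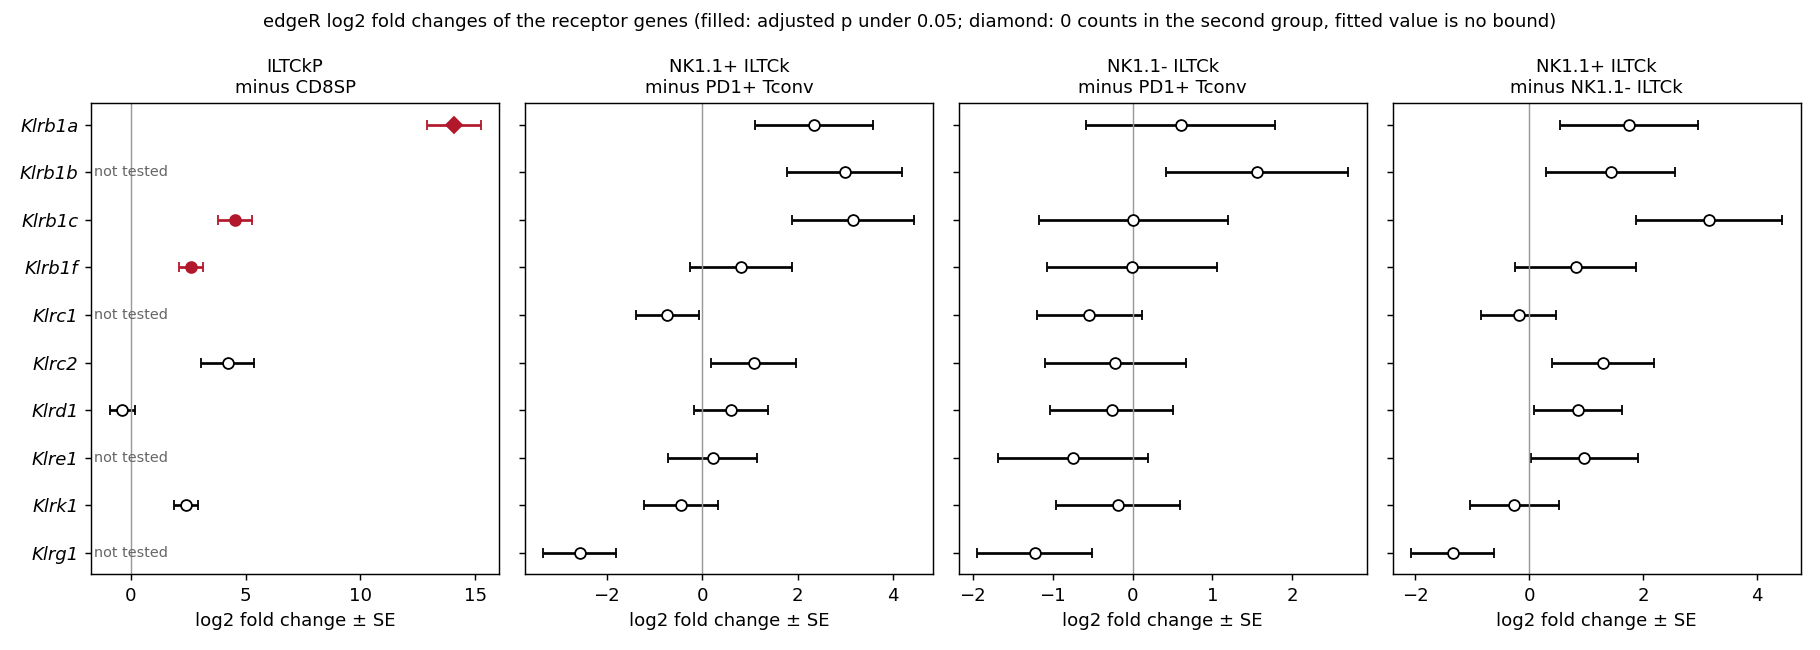
edgeR log2 fold change of each receptor gene in the 4 comparisons, with a standard error derived from the test's F value. Filled symbols passed an adjusted p under 0.05, and the diamond marks Klrb1a, whose CD8SP libraries had 0 counts and whose fitted value is no bound. Filled symbols appear only for Klrb1a, Klrb1c and Klrb1f in the thymus, and Klrg1 lies below 0 in each tumour comparison under this library scaling (NK1.1- ILTCk against PD1+ Tconv is 0.47 with CD3 scaling).

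At an unadjusted p under 0.05, edgeR gave 3 receptor genes and 2590 genes in all for NK1.1+ ILTCk against PD1+ Tconv, 0 and 2147 for NK1.1- ILTCk against PD1+ Tconv, and 1 and 712 for NK1.1+ against NK1.1- ILTCk. DESeq2 called 1, 0 and 0 receptor genes in these comparisons, with 4.74% and 0.373% of genes in the last pair. By libraries alone, NK1.1+ ILTCk lay above PD1+ Tconv for 2 genes (Klrb1b and Klrb1c) and below for 1 (Klrg1), against 20.7% and 20.8% of all genes. NK1.1- ILTCk lay above PD1+ Tconv for Klrb1b and below for Klrg1, against 23.1% and 22.7% of all genes, and these 2 comparisons share the PD1+ Tconv libraries. NK1.1+ lay above NK1.1- ILTCk for Klrb1c and below for Klrg1, against 18.6% and 18.9%. Counts of 1 or 2 in 10 are near or below these backgrounds. The median log2 fold change of the 10 genes was 0.71, -0.20 and 0.92 in the 3 comparisons, beside -0.04, -0.04 and 0.01 over all genes tested.

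Replicates differed more than most groups did. The level of a receptor gene in the first library divided by that in the second had a median over the 10 genes of 4.51 for NK1.1+ ILTCk, 3.87 for PD1+ Tconv and 1.68 for NK1.1- ILTCk, and in the first pair of groups it was at least 2.68 for all 10 genes. In these libraries the T cell markers moved the same way, from 3090 to 635 CPM for NK1.1+ ILTCk and from 5463 to 3691 CPM for PD1+ Tconv. When the counts were set against the 4 CD3 chains in place of the library, the median ratio of first to second library was 0.854 for NK1.1+ ILTCk, 2.49 for PD1+ Tconv and 1.23 for NK1.1- ILTCk.

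Per 1000 CD3 chain counts, Klrb1c stood at 159 and 186 for NK1.1+ ILTCk, 34.4 and 19.6 for NK1.1- ILTCk and 14.6 and 1.35 for PD1+ Tconv. On this scale its log2 fold change between NK1.1+ ILTCk and PD1+ Tconv was 4.42, and it passed edgeR's test (adjusted p = 0.0483), the 1 receptor call in the tumour table under this scaling. In that comparison the same scaling called 485 of all 18091 genes tested, 461 of them higher. Klrb1c is the sort marker that separates these gates, so its call is a check of the sort. Klrb1a stood at 63.8 and 48.2, 37.6 and 15.0, and 9.21 and 1.59, and Klrb1b at 12.2 and 9.54, 7.94 and 5.04, and 1.09 and 0.234, in the same order. All 3 genes were ordered NK1.1+ ILTCk, NK1.1- ILTCk, PD1+ Tconv with no overlap. Klrk1 stood at 54.8 and 66.2, 94.8 and 117, and 50.7 and 23.6, so that NK1.1- ILTCk had the most NKG2D transcript per CD3 count. Klrg1 stood at 2.36 and 4.65, 9.33 and 12.5, and 10.4 and 5.32, and NK1.1+ ILTCk remained the lowest.

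The CD3 scaling moves most genes, not the receptors alone. The median log2 fold change of all genes against PD1+ Tconv went to 1.70 for NK1.1+ ILTCk and to 1.49 for NK1.1- ILTCk, beside 1.72 and 1.47 for the 10 receptor genes. In the thymus the median of all genes went to 0.35. There 5 of the 6 tested receptor genes, and Klre1, lay above CD8SP and 0 below, beside 44.6% and 17.1% of all genes tested. The filter on low counts partly set that count, since Klrb1a, Klrb1c and Klrc2 passed it only through ILTCkP. On this scale NK1.1- ILTCk lay above PD1+ Tconv for 9 of the 10 genes and below for 0, against 72.8% and 2.08% of all genes. NK1.1+ ILTCk lay above PD1+ Tconv for 8 and below for 1, against 33.7% and 4.12%, and above NK1.1- ILTCk for 6 and below for 2, against 2.7% and 11.7%. The genes above in each of these comparisons of NK1.1+ ILTCk include the sort marker Klrb1c. Against PD1+ Tconv the receptors' medians thus lay close to those of all genes, and Klrc1, Klrk1 and, for NK1.1- ILTCk, also Klrb1f, Klrc2, Klrd1, Klre1 and Klrg1 had positive values here and negative ones under library scaling.

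**Figure D3:**
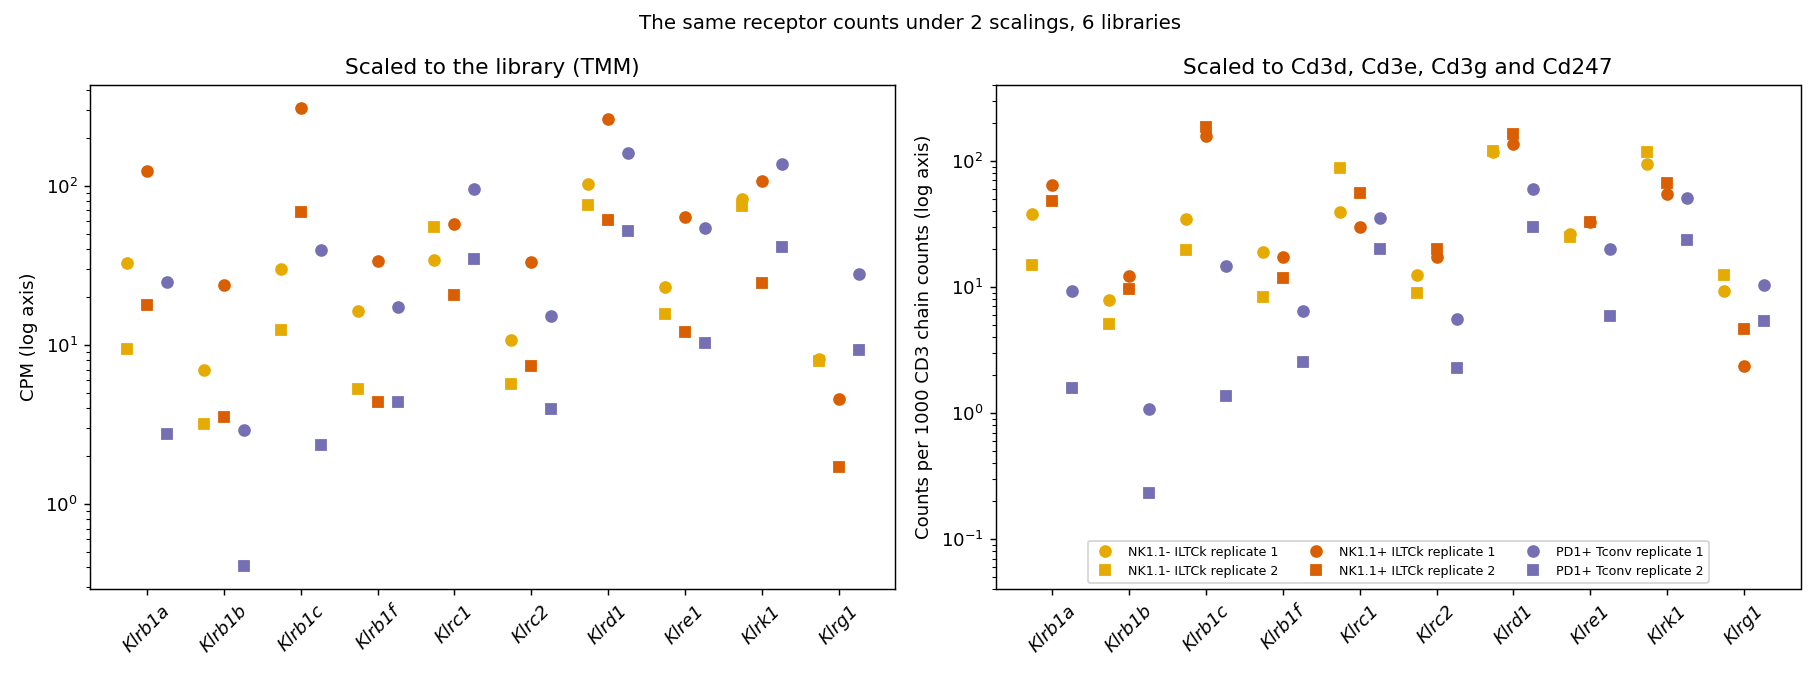
Receptor levels in the 6 tumour-table libraries in CPM (left) and per 1000 counts of Cd3d, Cd3e, Cd3g and Cd247 (right), both on log axes; circles are first and squares second libraries. The 2 NK1.1+ ILTCk libraries are close together on the right, as for Klrb1c at 159 and 186, and far apart on the left, at 309 and 68.6 CPM.

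The make-up of the receptor transcripts is a measure in which the library's scale cancels. Each gene's CPM was divided by its exon length and given as a percent of the sum over the 10 genes, so the shares depend on one another. In CD8SP, Klrd1 held 94.96% ± 1.61 (SD, n = 2) of this sum. In ILTCkP, Klrb1a held 64.2% ± 1.18, Klrd1 22.97% ± 3.47 and Klrb1c 6.46% ± 2.02. The thymic progenitors thus carried mostly NKR-P1 transcripts, at 77.5 and 73.3% for the 4 NKR-P1 genes together against 3.06 and 2.46% in CD8SP. The shares were higher in ILTCkP without overlap for Klrb1a, Klrb1c, Klrb1f, Klrc2, Klre1 and Klrk1 and lower for Klrc1 and Klrd1. On this scale 4.67% and 70.7% of all genes tested, which do not include Klre1 and Klrc1, were higher and lower. The receptors' own sum sets this scale, and the sum was larger in ILTCkP, where Klrb1a held most of it. These percentages thus partly follow from the receptors' own levels and are no separate background.

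In the tumour table Klrd1 held 48.5% ± 0.06 for NK1.1- ILTCk, 43.6% ± 1.95 for NK1.1+ ILTCk and 49.1% ± 3.36 for PD1+ Tconv. Klrb1c held 21.8% ± 0.39 for NK1.1+ ILTCk, 4.78% ± 1.94 for NK1.1- ILTCk and 2.97% ± 2.78 for PD1+ Tconv. Klrc1 held 7.96% ± 2.76 for NK1.1+ ILTCk against 16.6% ± 8.67 for NK1.1- ILTCk and 20.0% ± 3.11 for PD1+ Tconv. By mean share the NK1.1 gene came next to CD94 in NK1.1+ ILTCk, and NKG2A came next to CD94 in the other groups. Klrg1 went from 0.912% ± 0.34 for NK1.1+ ILTCk through 4.02% ± 0.74 for NK1.1- ILTCk to 7.83% ± 0.67 for PD1+ Tconv, and Klrk1 held 3.14% ± 0.13, 7.70% ± 1.00 and 7.16% ± 0.14. Against PD1+ Tconv, the shares in NK1.1+ ILTCk were higher without overlap for Klrb1a, Klrb1b, Klrb1c and Klrc2 and lower for Klrc1, Klrd1, Klrg1 and Klrk1, where 3.31% and 19.2% of all genes were higher and lower on the same scale. Because Klrb1c, the sort marker, is part of the sum, a higher share of it by itself lowers the others. The percentages over all genes on this scale are likewise set partly by the receptors' own sum and are no separate background. Against PD1+ Tconv, NK1.1- ILTCk differed without overlap for Klrb1b (higher) and Klrg1 (lower), where 11% and 15.0% of all genes did. Against NK1.1- ILTCk, the NK1.1+ shares were higher for Klrb1c and Klrc2 and lower for Klrc1, Klrd1, Klrg1 and Klrk1, where 1.18% and 21.1% of all genes were. Klrk1 and Klrc2 have long annotated exons, 7183 and 5812 bases, which lowers their level per kilobase.

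**Figure D4:**
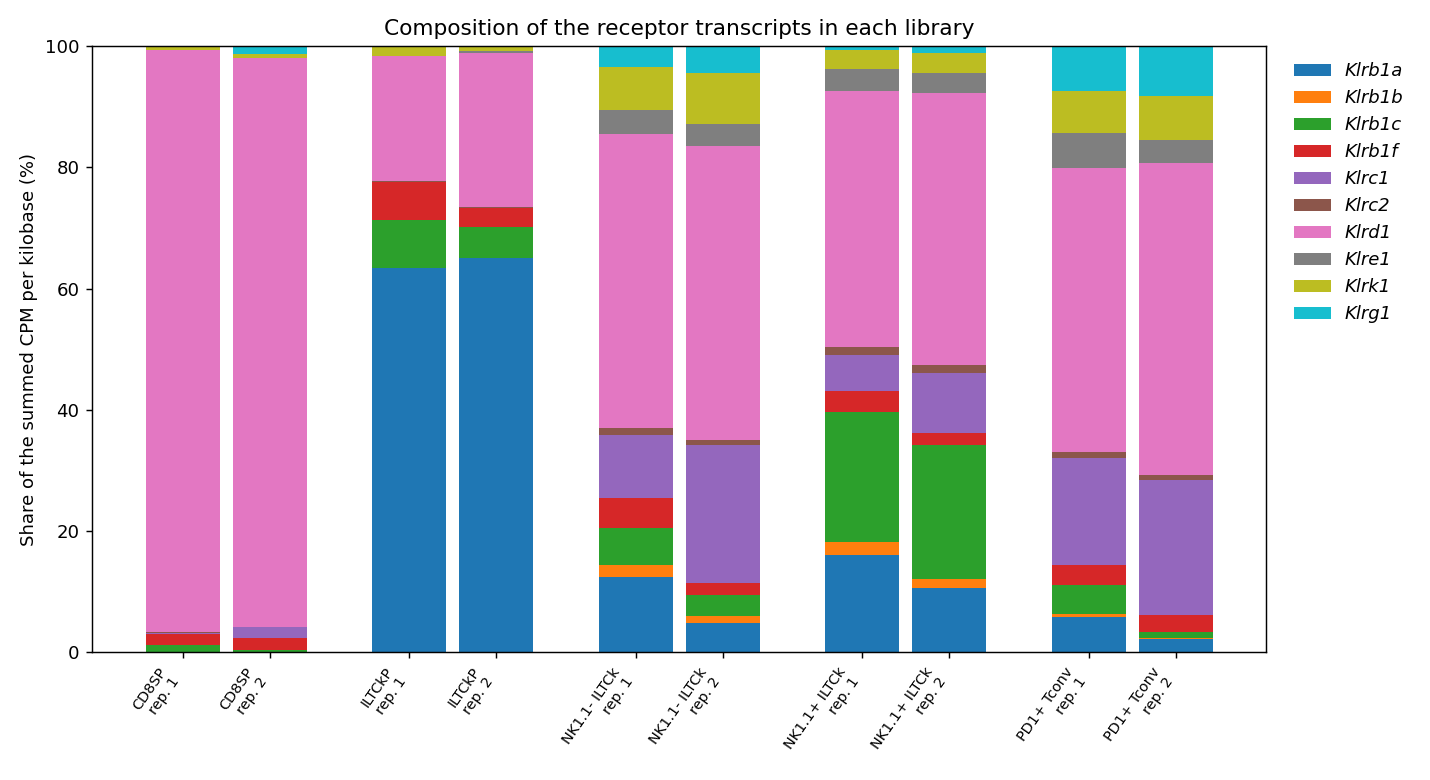
Share of each receptor gene in the summed CPM per kilobase of exon of the 10 genes, in percent, 1 bar per library. Klrd1 fills the CD8SP bars, Klrb1a the larger part of the ILTCkP bars, and Klrb1c takes 21.8% on average in NK1.1+ ILTCk against 4.78 and 2.97% in the other tumour-table groups.

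The ligand genes were described next, because NKR-P1 and NKG2 ligands can be made by T cells themselves. Of the 18 listed, 14 were in the tables and 5 passed the filter in the thymus, where 0 were called and all 5 had negative values (median log2 fold change -0.59), beside 0.01 over all genes. They were Cdh1 (E-cadherin, a KLRG1 ligand) at -1.17 ± 0.42, H2-T23 (Qa-1) at -0.59 ± 0.22, Clec2d at -0.80 ± 0.47, Ulbp1 at -0.59 ± 0.38 and Clec2i at -0.14 ± 0.38. Of the 11 tested among the tumour-table libraries, edgeR called 0. DESeq2 called 1 there, H60b, an NKG2D ligand, which was lower in NK1.1+ ILTCk than in PD1+ Tconv (-2.63, adjusted p = 0.0110). H2-T23 was abundant in all tumour-table libraries, from 585 to 1008 CPM.

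Of the 16 adaptor and kinase genes of the activating receptors, 3 were higher in ILTCkP than in CD8SP by edgeR and 0 lower, and the list's median was -0.04. The 3 were Fcer1g, the Fc receptor gamma chain with an activation motif (7.12 ± 0.30, adjusted p = 0.00201), Plcg2, a phospholipase of receptor signalling (4.93 ± 0.40), and Tyrobp (3.22 ± 0.51, adjusted p = 0.0292). Fcer1g is the adaptor of NKR-P1C, so Klrb1c and its adaptor gene were both higher in the progenitors. Hcst, the NKG2D adaptor, stood at 74.6 and 81.2 CPM in CD8SP and 62.1 and 39.6 CPM in ILTCkP. In the tumour table edgeR called 0 of the 16 in each comparison. DESeq2 called Tyrobp (3.42), Fcer1g (3.33) and Syk (4.39) higher and Lat (-3.02) and Fyn (-2.07) lower in NK1.1+ ILTCk than in PD1+ Tconv, Zap70 (-2.59) and Lat (-1.93) lower in NK1.1- ILTCk, and Tyrobp (2.09) and Fcer1g (2.28) higher in NK1.1+ than in NK1.1- ILTCk. Tyrobp, Fcer1g and Syk are also expressed by myeloid cells, whose markers were highest in NK1.1+ ILTCk, and the part of those cells was not tested. Of the 3 phosphatase genes of inhibitory receptors (Ptpn6, Ptpn11 and Inpp5d), edgeR called 0 in any comparison. DESeq2 called Inpp5d higher in ILTCkP (1.08, adjusted p = 0.00570).

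Of 16 regulators of NK-type receptor genes, 6 were higher and 3 lower in ILTCkP by edgeR, with a median of 0.65. Il2rb, the receptor chain for interleukins that sustain NK cells, was higher (3.52 ± 0.22), as was Tbx21 (T-bet, 3.35 ± 0.38), while the T-lineage regulators Satb1 (-2.74 ± 0.25) and Bcl11b (-2.59 ± 0.24) were lower. Eomes, on the same list and also among the NK cell markers, was lower too, at 9.27 and 6.33 CPM in CD8SP and 1.26 CPM in each ILTCkP library. In the tumour table edgeR called 0 of the 16. DESeq2 called Eomes (-5.49), Bcl11b (-4.46) and Tcf7 (-2.40) lower in NK1.1+ ILTCk than in PD1+ Tconv, and Eomes (-3.93), Bcl11b (-2.91) and Runx3 (-2.67) lower in NK1.1- ILTCk. The list's medians there were -1.06 and -1.34, and the 10 T cell markers also had negative medians, -1.64 and -1.52, in the same comparisons. Of the 6 listed other lectin-like genes, Klrh1 was in neither table and only Klrb1 passed the filter in the thymus. Among the tumour-table libraries 5 were tested, and 0 were called by either tool.

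The NK cell markers give the levels against which NK-type receptors can be read. The 10 listed genes summed to 601 and 366 CPM for NK1.1- ILTCk, 1967 and 498 CPM for NK1.1+ ILTCk and 1635 and 675 CPM for PD1+ Tconv. Ncr1, which encodes the NK receptor NKp46, stood at 1.68 and 2.83 CPM, 38.0 and 7.18 CPM, and 1.97 and 0 CPM in the same order. Klra8 was at or below 1.07 CPM in every library, and Eomes, also on this list, was highest in PD1+ Tconv. Ncr1 was thus highest in NK1.1+ ILTCk, as Klrb1c was, and the part of NK cells in the receptor levels there was not tested.

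Across the 6 tumour-table libraries the receptor genes varied largely together. Over the 45 pairs, Pearson's r of log2(CPM + 1) ran from -0.34 to 0.98 with a median of 0.77, a description over 6 libraries that share their depth, scaling and cell make-up. Among 7835 other genes with a mean log2 CPM of at least 4, those most like Klrb1c were Gzmc (r = 0.99), Klra1 and Bub3 (0.98 each), and those most like Klrb1a were Swap70, Tnni1 and Itgax (0.99 each). Klrd1 was most like Itgae and Gzmb (0.97 each), and Klrk1 most like Aspm, Cd226 and Ctr9 (0.99 each). Gzmb and Gzmc encode granzymes, the proteases of killer cells, Itgae encodes the CD103 integrin of tissue-resident T cells, and Itgax encodes CD11c, a dendritic cell marker that activated T cells can carry too.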

How the data were processed

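Whole-number read counts per gene symbol were used as deposited by the authors in 2 tables of bulk RNA-sequencing libraries, which the labels describe as raw counts. The submitters' processing notes name mm10 as the genome build and DESeq as a tool. Aligner, read counter and annotation are not given in the sources consulted. The 4 single-cell libraries were not analysed here. The 10 receptor genes, the gene lists and the markers were chosen with earlier results of these data known.

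Each table was fitted separately over all its genes with edgeR 4.0.16 (R 4.3.3): filterByExpr (minimum count 10, minimum total 15), TMM scaling, glmQLFit with robust estimation and glmQLFTest, with Benjamini-Hochberg adjustment over all genes tested and calls at 0.05. The tumour comparisons took their spread from all 6 libraries. The edgeR test reports no standard error, so SE here is the absolute log2 fold change divided by the square root of the test's F value. A fold against a group at 0 counts is a bound with 3 counts over the group, which covers counting error only. Alternatives were RLE scaling, scaling to the CD3 chains, no filter, DESeq2 1.42.0, voom from limma 3.58.1, the replicate number as a block, the 4 compared libraries alone, and each library left out.

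All 10 receptor genes are named whatever their result. Of each list, up to 4 genes with the smallest p per comparison are given, and other calls are named after their values were seen. The genes most alike are those with the highest Pearson r of log2(CPM + 1) over the 6 tumour-table libraries, without receptor segments, predicted and Rik genes. Levels per kilobase use the union of annotated exons in GENCODE M21. Promoter identity is over global alignments (Biopython 1.88).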

Additional observations from a re-analysis of the deposited data

How the results depend on the processing

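In the thymus edgeR called 689 genes, 3 of them receptors. The count of all genes was 2535 with no filter on low counts, 1997 with DESeq2 and 2212 with the replicate block, and from 592 to 7017 with 1 library left out, with 2812 without the first and 7017 without the second ILTCkP library. Receptor calls ran from 2 to 5 with 1 library left out. Klrk1 joined them with CD3 scaling (adjusted p = 0.0416), no filter (0.00828), DESeq2 (0.00540) and the block (0.0231). Klrd1 ran from -1.42 to 0.25 with 1 library left out.

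Between NK1.1+ ILTCk and PD1+ Tconv, where edgeR called 0 genes, 485 were called with CD3 scaling, 1249 with no filter, 1269 with DESeq2, 3 with limma-voom and 755 with the replicate block, and from 0 to 35 with 1 library left out (35 without the first NK1.1+ ILTCk library). Receptor calls there were 1 with CD3 scaling (Klrb1c), 2 with no filter (Klrb1b and Klrg1), 1 with DESeq2 (Klrg1) and 4 with the block. Between NK1.1- ILTCk and PD1+ Tconv the counts of all genes were 25 with CD3 scaling, 799 with no filter, 708 with DESeq2 and 298 with the block, and 167 with no filter and 57 with DESeq2 between the ILTCk groups, with 0 receptor calls in each. The cause of these differences was not tested.

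The replicate numbers of the labels give 2 pairs per comparison and no shared source. Deviations of same-numbered libraries correlated over genes at 0.19 in the thymus and 0.36 to 0.41 in the tumour table. With the number as a replicate block, the 4 receptor genes called for NK1.1+ ILTCk against PD1+ Tconv were Klrb1a (2.45, edgeR adjusted p = 0.0197), Klrb1b (2.99, 0.0442), Klrb1c (3.65, 0.0196) and Klrg1 (-2.53, 0.0457). Among these Klrb1c is the sort marker, so its call is a check of the sort.

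Differences changed sign under some of the alternatives, and not only those near 0. In NK1.1+ minus NK1.1- ILTCk, the main values of 1.75 for Klrb1a and 1.43 for Klrb1b were among those that did. CD3 scaling gave 0.63 for Klrc1 and 0.70 for Klrk1 in NK1.1+ ILTCk against PD1+ Tconv. For NK1.1- ILTCk against PD1+ Tconv it gave 1.60 for Klrb1f, 1.19 for Klrc1, 1.43 for Klrc2, 1.40 for Klrd1, 0.97 for Klre1, 1.51 for Klrk1 and 0.47 for Klrg1. There Klrb1f was 0.0079 with RLE scaling, 0.010 with no filter, 0.011 with DESeq2 and 0.12 with the block, which also gave 0.046 for Klrc2, 0.022 for Klrd1 and 0.17 for Klrk1, and limma-voom gave 0.024 for Klrk1. With 1 library left out, NK1.1+ ILTCk minus PD1+ Tconv ran from -1.31 to 2.14 for Klrb1f, -1.65 to 0.20 for Klrc1, -0.37 to 2.37 for Klrc2, -0.82 to 1.66 for Klrd1, -1.42 to 1.90 for Klre1 and -1.86 to 0.69 for Klrk1. NK1.1- ILTCk minus PD1+ Tconv ran from -0.55 to 2.96 for Klrb1a, -0.90 to 3.19 for Klrb1c, -1.04 to 1.33 for Klrb1f, -1.11 to 0.38 for Klrc1, -0.88 to 1.07 for Klrc2, -0.87 to 0.80 for Klrd1, -1.50 to 0.93 for Klre1 and -0.82 to 0.95 for Klrk1. NK1.1+ minus NK1.1- ILTCk ran from -0.25 to 2.90 for Klrb1a, -0.52 to 2.23 for Klrb1b, -1.31 to 1.85 for Klrb1f, -1.11 to 0.37 for Klrc1, -0.16 to 2.01 for Klrc2, -0.56 to 1.56 for Klrd1, -0.68 to 1.72 for Klre1 and -1.68 to 0.44 for Klrk1. Values that kept their sign with each library left out still moved: in NK1.1+ ILTCk minus PD1+ Tconv from 0.35 to 4.70 for Klrb1a, 1.04 to 5.07 for Klrb1b, 1.70 to 6.34 for Klrb1c and -3.44 to -1.53 for Klrg1, in NK1.1- ILTCk minus PD1+ Tconv from 0.78 to 3.64 for Klrb1b and -1.82 to -0.19 for Klrg1, and in NK1.1+ minus NK1.1- ILTCk from 1.69 to 3.93 for Klrb1c and -2.22 to -0.80 for Klrg1. With 2 libraries a group the spread within groups limits the tumour comparisons, and in the thymus the counts of Klrb1b, Klrc1, Klre1 and Klrg1 were too few to test.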
